A study of Mus musculus with 2 samples.

Results

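Vascular endothelial growth factors (VEGFs) and angiopoietins were followed through 10 genes, Vegfa, Vegfc, Kdr, Flt1, Flt4, Nrp1, Nrp2, Tek, Tie1 and Angpt2, among the 30970 gene rows of single-cell count matrices from mouse yolk sac. The genes were taken by name, and no value of theirs was used to set the cell classes they are described in. The yolk sacs were from embryos at embryonic stage E8.75, and the series' design text gives 3 yolk sacs of 3 embryos. Every embryo carried Ttr-Cre/+ and R26lsl-rtTA-EGFP/+, that is, Cre recombinase under the promoter of Ttr, a gene of the visceral endoderm, with a Cre-activated rtTA and EGFP allele at Rosa26. No treatment is named in the labels, and there was no other genotype to compare with. Cells of each yolk sac were marked with lipid-anchored oligonucleotide tags (CellPlex) and loaded together on a droplet chip, so the 3 samples below are tagged samples 1, 2 and 3 of 1 pool, and they are the replicates of every test.

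VEGF-A is the main growth signal for blood vessels. It binds the receptor tyrosine kinases VEGFR2, encoded by Kdr, which carries most of the signal, and VEGFR1, encoded by Flt1, which binds tightly, signals weakly and also exists in a soluble form that traps the ligand. VEGF-C binds VEGFR3, encoded by Flt4, and the neuropilins Nrp1 and Nrp2 are co-receptors that also take semaphorins. Angiopoietins act on the receptor Tie2, encoded by Tek, with Tie1 as its partner, and Angpt2 can act as a context-dependent antagonist of Angpt1. In the yolk sac the first vessels and blood cells form from mesoderm lying against the visceral endoderm, and mouse embryos without Kdr form neither.

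The 3 matrices held 460, 651 and 706 cells with 22007477, 32890946 and 33114758 unique molecular identifiers (UMIs), each one captured transcript, and no barcode was found in more than 1 of them. Cells with 500 or more genes and with 10% or less of their UMIs from mitochondrial genes were kept, 1740 of 1817. They were sorted by the share of their UMIs from a few class-defining genes: 559 endoderm cells, 199 mesoderm cells, 115 endothelium cells and 629 erythroid cells, with 188 cells past no threshold, described at the end, and 50 past several, which were left out. Levels are in CPM, a gene's UMIs divided by all UMIs of the class in a sample and scaled to a total of 1000000. Markers outside those defining genes were highest in their own class when summed, although Pdgfra, 1 of the mesoderm markers, was at 22.3 CPM in endoderm and 16.9 in mesoderm on average. The summed level of 10 other endothelium markers was 1250 to 1460 CPM in endothelium and 53.4 to 108 in the other 3 classes, that of 10 endoderm markers 19493 to 25444 in endoderm and 359 to 732 elsewhere, that of 10 mesoderm markers 648 to 1017 in mesoderm and 5.33 to 76.0 elsewhere, and that of 8 erythroid markers 791 to 1077 in erythroid cells and 27.3 to 115 elsewhere. In endothelium, 5 of 9 blood progenitor and megakaryocyte markers had a UMI, with a summed level of 54.6 to 109 CPM, while Ppbp, Gp1bb, Gp9 and Ptprc were at 0. Since 3′ UMI counts depend on how each gene is captured, levels were compared between classes within a gene and not between genes.

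Kdr, Flt1, Flt4, Tek, Tie1 and Vegfc were highest in endothelium, and Vegfa, Nrp1 and Angpt2 in mesoderm. Against endoderm, edgeR's quasi-likelihood test with Benjamini-Hochberg adjustment over all genes called 8 of 9 tested members higher in endothelium, where 28.6% of all 10678 genes tested were higher, and 1 lower, Vegfa, where 32.0% were lower. The median log2 difference was 5.81 over the members and -0.05 over all genes tested. Against mesoderm, 6 of 10 members were higher in endothelium, beside 19.5% of 9088 genes, and 3 were lower, Vegfa, Nrp1 and Angpt2, beside 15.9%, with a median of 1.78 for the members and -0.01 for all genes. Against erythroid cells, 8 of 9 were higher and none lower, beside 34.1% and 31.9% of 9240 genes, with a median of 6.68 and -0.03. In endoderm against mesoderm, 8 of 9 were lower in endoderm and none higher, beside 30.6% and 33.2% of 10997 genes, with a median of -2.43 and 0.02. Of all calls, 47.2%, 55.1%, 51.7% and 52.1% were higher in the first-named class in these 4 comparisons. With scaling by library size alone that share was 54.5% for endothelium against endoderm, 42.4% for endothelium against mesoderm, 69.3% for endothelium against erythroid cells and 37.6% for endoderm against mesoderm. Angpt2 was too low to be tested in endothelium against endoderm or erythroid cells, as was Tie1 in endoderm against mesoderm. Vegfc had 3 UMIs in endoderm and 1 in erythroid cells, and Tie1 had 3 in mesoderm. The low-count filter asked for enough counts in 3 sums. Against erythroid cells, all 8 members called passed it only through endothelium. So did Vegfc, Kdr, Flt4, Tek and Tie1 against endoderm, and Vegfc, Flt4 and Tie1 against mesoderm. Angpt2 in endothelium against mesoderm passed only through mesoderm, as did Vegfc, Kdr, Flt4, Tek and Angpt2 in endoderm against mesoderm. This fixed the direction of these calls, so they describe the members and do not test it. The same holds below, for these members and for list genes low in 1 class. The comparisons share classes, so their counts are not independent of each other.

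**Figure D1:**
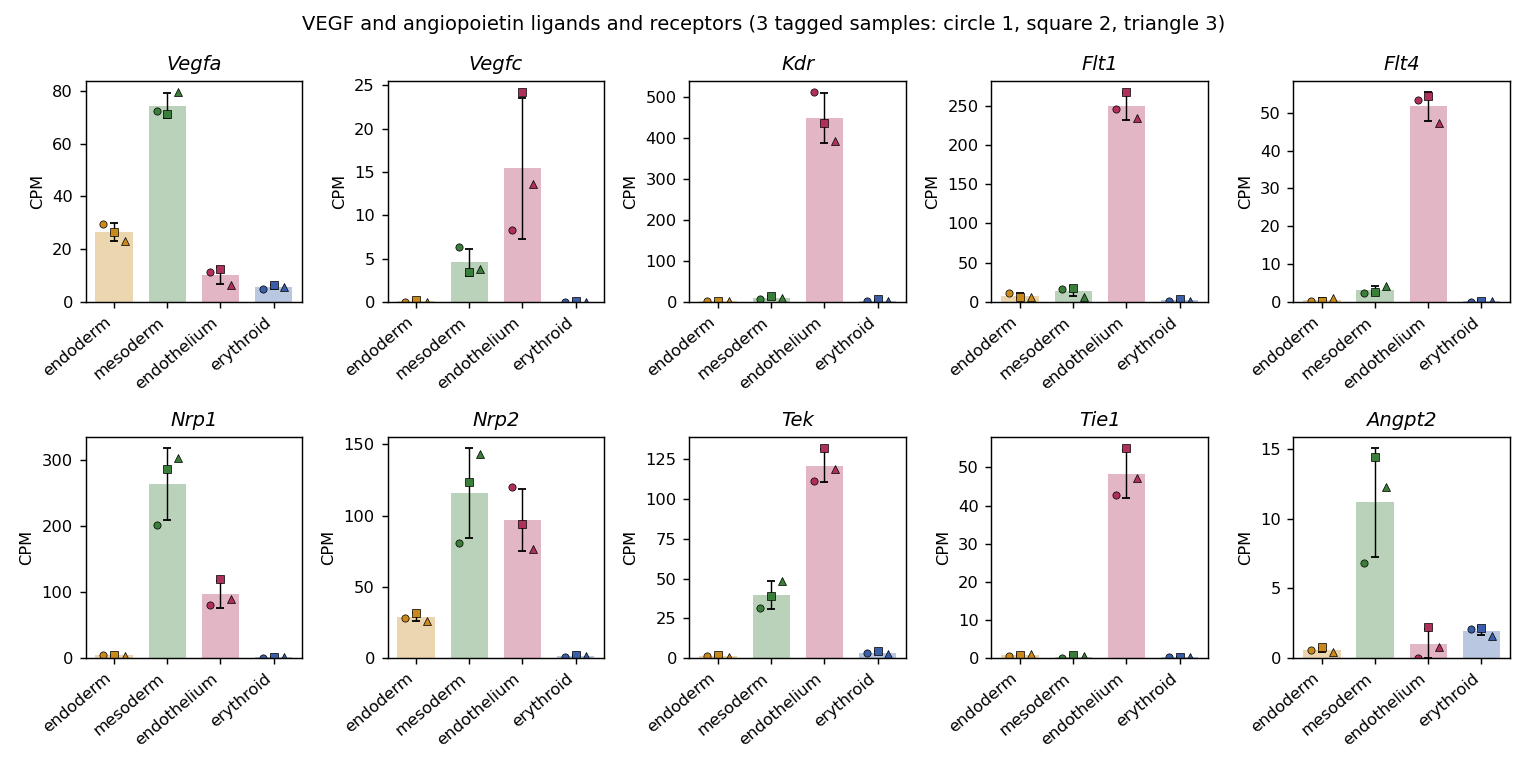
CPM of each of the 10 genes (y axis, linear, own scale per panel) in the 4 classes (x axis), with the 3 tagged samples as points, their mean as a bar and 1 SD as the error bar (drawn no lower than 0). Kdr, Flt1, Flt4 and Tie1 stand far above the other classes in endothelium, Vegfa, Nrp1 and Angpt2 are highest in mesoderm, and the Nrp2 points of mesoderm and endothelium overlap.

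Vegfa (ENSMUSG00000023951, chr17:46016993-46032369 on the minus strand of GRCm38) was measured at 72.3, 71.2 and 79.7 CPM in mesoderm of samples 1, 2 and 3. In endoderm it was 29.7, 26.5 and 23.1, in endothelium 11.3, 12.5 and 6.40, and in erythroid cells 4.86, 6.44 and 5.72. Mesoderm, endoderm and endothelium thus did not overlap, whereas endothelium and erythroid cells did. The level in endoderm was below that in mesoderm by a log2 difference of -1.25 ± 0.11 (SE, n = 3 samples per class, edgeR adjusted p = 2.27e-06). Over 16 alternative settings, described at the end, this difference ranged from -1.54 to -0.75 and was called in each. The mesoderm mean of 74.4 CPM moved to 65.5 with the class thresholds halved and to 89.7 with them doubled. The level in endothelium was below that in mesoderm by -2.74 ± 0.20 (adjusted p = 3.70e-07 by edgeR) and below that in endoderm by -1.49 ± 0.22 (edgeR adjusted p = 6.55e-05). Endothelium did not pass against erythroid cells at 0.50 ± 0.27 (edgeR adjusted p = 0.124). With scaling by library size alone, which moved the median of all genes in that comparison from -0.03 to 0.28, it passed at 0.81 with an adjusted p of 0.0193. To compare shares of cells at 1 depth, cells were thinned to 20000 UMIs, and the 25 mesoderm, 48 endoderm, 31 endothelium and 13 erythroid cells with fewer were left out of all shares given at that depth. Vegfa was then found in 64.4% of 174 mesoderm cells (exact binomial 95% interval 56.8 to 71.5), 41.7% of 511 endoderm cells (37.4 to 46.1), 16.7% of 84 endothelium cells (9.42 to 26.4) and 11.7% of 616 erythroid cells (9.26 to 14.5). Unthinned, these shares were 71.4%, 69.4%, 28.7% and 25.3%, at median depths of 34959, 56338, 35699 and 47771 UMIs per cell. Intervals of this kind cover counting error only.

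Vegfc (ENSMUSG00000031520, chr8:54077606-54187096) was, unlike Vegfa, higher in endothelium than in mesoderm, with 8.31, 24.3 and 13.6 CPM in endothelium and 6.37, 3.50 and 3.82 in mesoderm. Endoderm gave 3 UMIs and erythroid cells 1 UMI in all, each of them in sample 2. All 3 endothelium samples lay above all 3 mesoderm samples, and sample 2 was the highest. The log2 difference between endothelium and mesoderm was 1.85 ± 0.42 (SE, n = 3, edgeR adjusted p = 0.00380). Without sample 2 it was 1.20 with an adjusted p of 0.0838, and without sample 1 it was 2.48. The pooled ratio of endothelium to endoderm was 162 (exact counting interval 52.9 to 804) and that to erythroid cells 474 (82.1 to 19014), both resting on those few UMIs. Without sample 2, endoderm and erythroid cells were at 0. Vegfc was found in 21.4% of endothelium cells at 20000 UMIs (interval 13.2 to 31.7), against 0.391% of endoderm cells. Unthinned, these were 31.3% and 0.537%.

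Angpt2 (ENSMUSG00000031465, chr8:18690263-18741562, minus strand) was measured at 6.82, 14.4 and 12.3 CPM in mesoderm. Erythroid cells had 2.08, 2.15 and 1.61, endoderm 0.44 to 0.76, and endothelium 4 UMIs in all, at 0, 2.21 and 0.80. Every mesoderm sample was thus above every sample of the other classes. Angpt2 was lower in endothelium than in mesoderm by -3.39 ± 0.63 (log2, SE, n = 3, edgeR adjusted p = 0.00101), or -4.44 without sample 2, and lower in endoderm than in mesoderm by -3.92 ± 0.37 (edgeR adjusted p = 2.89e-06). In both comparisons it passed the low-count filter only through mesoderm, which fixed the direction. At 20000 UMIs it was found in 14.9% of mesoderm cells (10.00 to 21.1), 4.38% of erythroid cells (2.91 to 6.31), 3.57% of endothelium cells (0.743 to 10.1) and 0.783% of endoderm cells (0.214 to 1.99). Unthinned, the shares were 32.2%, 8.74%, 3.48% and 3.40%.

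Of 8 further ligand and ligand-processing genes, most that could be tested were also higher in mesoderm. In endothelium against mesoderm, 4 were tested, 3 were lower in endothelium and none was higher, with a median log2 difference of -4.45 (-3.42 with Angpt4 set at its bound) beside -0.01 for all genes. In endoderm against mesoderm, 5 of 6 were lower in endoderm and none was higher, with a median of -4.97 beside 0.02. In both comparisons, all tested genes of the list but Vegfb passed the low-count filter only through mesoderm, which fixed their direction. Angpt1, the activating ligand of Tie2, was measured at 25.0, 39.3 and 35.6 CPM in mesoderm, 0, 5.88 and 8.00 in endothelium, and 0.22 to 0.49 in endoderm. It was lower in endoderm than in mesoderm by -6.19 ± 0.29 (log2, SE, n = 3, edgeR adjusted p = 1.31e-08). Angpt4, another Tie2 ligand, had 10.0, 8.95 and 14.8 CPM in mesoderm and no UMI in endothelium, so mesoderm was at least 16.1-fold higher when 3 UMIs were set for the whole endothelium class. Svep1, a large secreted protein that binds Tie1, had 55.1 ± 18.3 CPM in mesoderm (SD, n = 3) and 3 UMIs in endothelium, a pooled ratio of 79.5 (counting interval 27.0 to 387). Its level was lower in endoderm than in mesoderm by -6.52 ± 0.34 (log2, SE, n = 3, edgeR adjusted p = 2.64e-08). Vegfb, a ligand of VEGFR1, was spread over all classes, from 44.5 ± 6.62 in erythroid cells to 77.9 ± 13.0 in mesoderm (SD, n = 3). It was the 1 gene of the list tested in endothelium against endoderm, lower by -0.55 ± 0.16 (edgeR adjusted p = 0.00835), and against erythroid cells, at 0.09 ± 0.14 (edgeR adjusted p = 0.599). In both of these comparisons the list median is that 1 value.

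**Figure D2:**
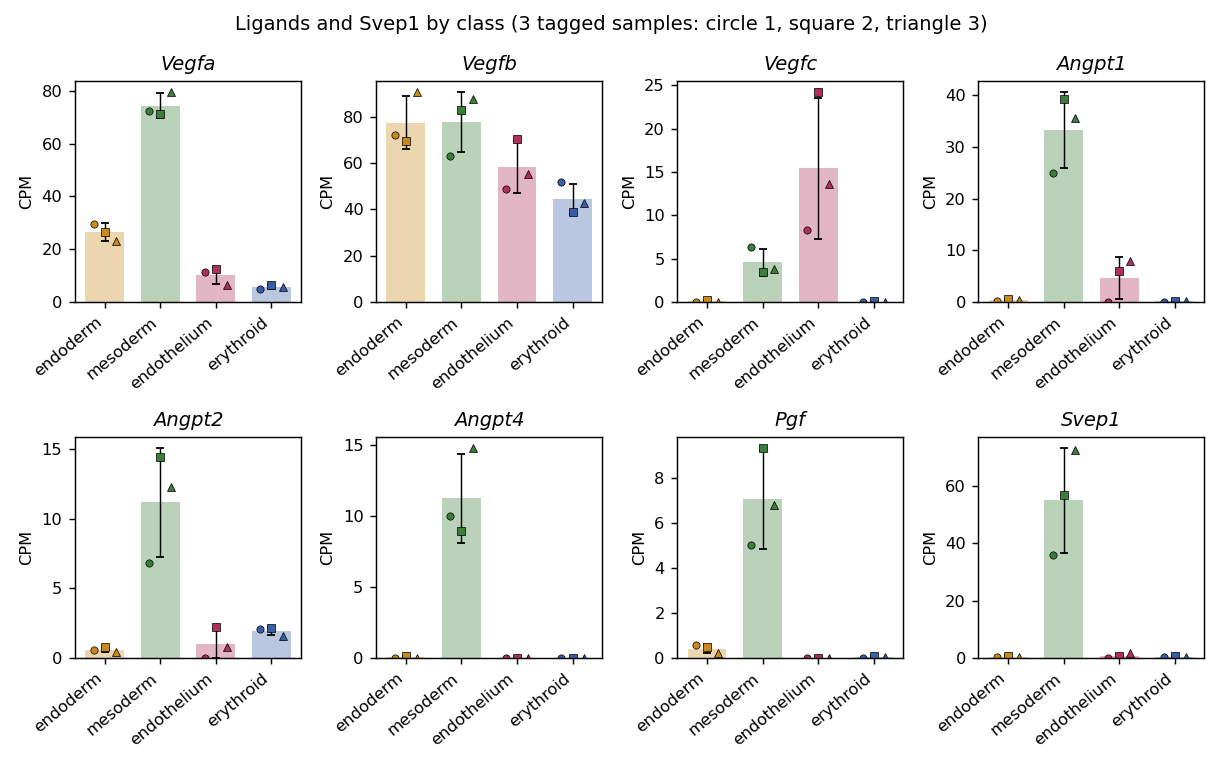
CPM (y axis, linear, own scale per panel) of 7 ligand genes and of Svep1 in the 4 classes (x axis), with the 3 tagged samples as points, the mean as a bar and 1 SD as the error bar (drawn no lower than 0). Vegfa, Angpt1, Angpt2, Angpt4, Pgf and Svep1 are highest in mesoderm in all 3 samples, Vegfc in endothelium, and Vegfb is at 44.5 to 77.9 on average in every class.

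Among the VEGF receptors, Kdr (ENSMUSG00000062960, chr5:75932827-75978458, minus strand) had 512, 436 and 393 CPM in endothelium. Mesoderm had 6.37, 13.6 and 10.6, erythroid cells 1.62, 5.97 and 1.73, and endoderm 1.34, 2.08 and 2.83. Endothelium did not overlap with any other class, and erythroid cells and endoderm overlapped with each other. The log2 difference of endothelium was 7.60 ± 0.19 against endoderm (edgeR adjusted p = 5.71e-12), 5.55 ± 0.19 against mesoderm (edgeR adjusted p = 9.10e-10) and 6.81 ± 0.28 against erythroid cells (edgeR adjusted p = 7.46e-10), all with n = 3. The last was 7.74 without sample 2, in which erythroid cells had the most Kdr. At 20000 UMIs, Kdr was found in 84 of 84 endothelium cells (interval from 95.7%), 18.4% of mesoderm cells (12.9 to 25.0), 3.25% of erythroid cells (1.99 to 4.97) and 2.15% of endoderm cells (1.08 to 3.82), and unthinned in 95.7%, 22.6%, 7.95% and 5.19%. In endoderm of samples 2 and 3, 1 cell held 63.3% and 65.4% of the Kdr UMIs. When cells called as doublets by Scrublet were removed, the endoderm mean fell from 2.09 to 0.971 and the difference from endothelium was 8.84. The same removal moved the difference between endothelium and endoderm to 7.22 for Tek, 7.41 for Flt4 and 5.23 for Nrp1, from the 6.19, 6.61 and 4.45 given with those genes, and the endoderm mean of Tek from 1.42 to 0.770.

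Flt1 (ENSMUSG00000029648, chr5:147561604-147726011, minus strand) had 246, 268 and 234 CPM in endothelium, 16.8, 17.5 and 6.36 in mesoderm, 11.4, 5.96 and 6.54 in endoderm and 1.39, 3.08 and 1.31 in erythroid cells. Mesoderm and endoderm overlapped, and all other neighbours in this order were separate. Endothelium exceeded endoderm by a log2 difference of 4.88 ± 0.18 (SE, n = 3, edgeR adjusted p = 1.41e-10), mesoderm by 4.31 ± 0.22 (edgeR adjusted p = 1.92e-08) and erythroid cells by 6.68 ± 0.19 (edgeR adjusted p = 8.78e-11). Endoderm against mesoderm did not pass, at -0.56 ± 0.35 (edgeR adjusted p = 0.180). With the class thresholds doubled it did, at -1.08 with an adjusted p of 0.0281, and the endoderm mean fell from 7.97 to 4.41. Doubled thresholds also widened the differences of endothelium to 5.96 from endoderm, 4.92 from mesoderm and 7.44 from erythroid cells. The Flt1 UMIs of endoderm came from few cells. The top 5% of endoderm cells held 83.3%, 84.9% and 91.7% of them in samples 1, 2 and 3, whereas for Vegfa the top 5% held 17.2% to 18.9%.

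Flt4 (ENSMUSG00000020357, chr11:49609263-49652739) was measured at 53.4, 54.4 and 47.2 CPM in endothelium. Mesoderm had 2.27, 2.72 and 4.24, endoderm 15 UMIs in all and erythroid cells 8. Again every endothelium sample was above every other. The log2 difference was 6.61 ± 0.31 against endoderm (edgeR adjusted p = 1.14e-09; 7.48 without sample 3), 4.16 ± 0.24 against mesoderm (edgeR adjusted p = 4.83e-08) and 7.26 ± 0.28 against erythroid cells (edgeR adjusted p = 4.60e-10), each with n = 3. Flt4 was found in 53.6% of endothelium cells at 20000 UMIs (42.4 to 64.5) and 62.6% unthinned, against 0.587% and 1.79% of endoderm cells. Of the 45 endothelium cells with Flt4 at that depth, 80.0% also had Nrp2, and 71.8% of the 39 without Flt4 did.

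The co-receptor Nrp1 (ENSMUSG00000025810, chr8:128358604-128503363) was, like Vegfa and Angpt2, higher in mesoderm than in endothelium. It had 201, 286 and 303 CPM in mesoderm, 80.1, 120 and 88.8 in endothelium, 4.92, 4.51 and 2.40 in endoderm and 0.69 to 1.61 in erythroid cells, with no overlap between any neighbours. It was lower in endothelium than in mesoderm by -1.34 ± 0.17 (log2, SE, n = 3, edgeR adjusted p = 4.75e-05) and higher than in endoderm by 4.45 ± 0.22 (edgeR adjusted p = 2.34e-09). At 20000 UMIs, 86.2% of mesoderm cells (80.2 to 91.0) and 79.8% of endothelium cells (69.6 to 87.7) had it, and 4.70% of endoderm cells did. Unthinned, the shares were 87.4%, 82.6% and 8.41%.

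Nrp2 (ENSMUSG00000025969, chr1:62703285-62818695) had 81.0, 123 and 143 CPM in mesoderm and 120, 94.1 and 76.8 in endothelium. These classes overlapped, and the sample that was lowest in mesoderm was the highest in endothelium. The log2 difference of endothelium from mesoderm did not pass, at -0.13 ± 0.20 (SE, n = 3, edgeR adjusted p = 0.667). It was -0.52 with an adjusted p of 0.00530 without sample 1 and 0.17 without sample 3. In mesoderm, sample 1 also had the lowest summed level of the 10 mesoderm markers, 648 against 1017 and 924 CPM, and the highest of 10 trophoblast markers, 845 against 280 and 263, with Tpbpa, Prl3d1 and Prl2c2 at 0 in the class. Sample 2 had the most of 8 parietal endoderm markers there, 919.6 against 266 and 343, and sample 3 the least of 6 contractile markers, 199 against 715 and 887. Phlda2, 1 of the trophoblast markers, alone reached 709 CPM in mesoderm and was at 794 in endoderm on average. The trophoblast sum was 669 to 975 in endoderm, and the parietal endoderm sum was 503 to 779 in endothelium. These sums therefore do not name cell types. The part of these markers in the result was not tested. Unlike the tyrosine kinase receptors, Nrp2 was also spread over endoderm, at 27.9, 31.8 and 26.3 CPM and in 43.6% of cells at 20000 UMIs (39.3 to 48.1; 70.8% unthinned). Its endoderm level was lower than that of mesoderm by -1.77 ± 0.17 (edgeR adjusted p = 3.67e-06). Erythroid cells had 0.69 to 2.24 CPM, and Nrp2 in endothelium exceeded this by 5.52 ± 0.24 (edgeR adjusted p = 1.44e-09).

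Of 12 semaphorin and plexin genes, the secreted ligands and signalling partners of neuropilins, 7 were tested in endothelium against endoderm, with 4 higher and 1 lower in endothelium. Against mesoderm 6 were tested, with 3 higher and 2 lower. Against erythroid cells only 4 of the 12 could be tested, and all 4 were higher. Of these, Sema3a and Sema3g had no UMI in erythroid cells and were tested only through endothelium, at 29 and 36 UMIs. Their direction was thus fixed by the low-count filter, as was that of Sema3g against endoderm, where it also had no UMI. In endoderm against mesoderm, 5 of 6 were lower in endoderm. The medians were 2.92, 1.03, 6.03 and -3.14, beside -0.05, -0.01, -0.03 and 0.02 for all genes. With Sema3a and Sema3g at their bounds, the third was 5.07. Plxnd1, a plexin of endothelial cells, had 104 ± 33.3 CPM in endothelium (SD, n = 3) and 5 UMIs in mesoderm, and its log2 difference was 7.18 ± 0.44 (SE, n = 3, edgeR adjusted p = 9.09e-08). Sema3g had 36 UMIs in endothelium and 1 in mesoderm, a pooled ratio of 59.8 (counting interval 10.1 to 2425). Sema3a, a repulsive ligand of Nrp1, had 29 UMIs in endothelium and 2 in endoderm. Plxna2 was higher in endothelium than in erythroid cells by 2.85 ± 0.28 (edgeR adjusted p = 2.13e-06). Sema3f, a ligand of Nrp2, was lower in endoderm than in mesoderm by -5.00 ± 0.32 (edgeR adjusted p = 1.19e-07) and Plxna1 by -1.47 ± 0.19 (edgeR adjusted p = 3.92e-05). The called shares are read beside those of all genes: 28.6% higher and 32.0% lower against endoderm, 19.5% and 15.9% against mesoderm, 34.1% and 31.9% against erythroid cells, and 33.2% and 30.6% in endoderm against mesoderm.

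Tek (ENSMUSG00000006386, chr4:94739289-94874976) had 112, 132 and 119 CPM in endothelium. In mesoderm it had 31.4, 39.3 and 48.8, far above erythroid cells at 3.47, 4.48 and 2.44 and endoderm at 1.34, 1.94 and 0.98. No neighbours in this order overlapped. Endothelium exceeded mesoderm by a log2 difference of 1.72 ± 0.15 (SE, n = 3, edgeR adjusted p = 2.24e-06), endoderm by 6.19 ± 0.19 (edgeR adjusted p = 4.81e-11) and erythroid cells by 4.86 ± 0.18 (edgeR adjusted p = 3.96e-10). Endoderm was lower than mesoderm by -4.48 ± 0.25 (edgeR adjusted p = 3.90e-08). At 20000 UMIs Tek was found in 85.7% of endothelium cells (76.4 to 92.4), 49.4% of mesoderm cells (41.8 to 57.1), 5.36% of erythroid cells (3.72 to 7.44) and 2.15% of endoderm cells (1.08 to 3.82), and unthinned in 90.4%, 59.3%, 11.9% and 5.19%.

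Tie1 (ENSMUSG00000033191, chr4:118471191-118490061, minus strand) did not share the mesoderm level of Tek. It had 42.7, 55.1 and 47.2 CPM in endothelium, 25 UMIs in endoderm, 7 in erythroid cells and 3 in mesoderm over all samples. Endothelium exceeded endoderm by a log2 difference of 5.81 ± 0.25 (SE, n = 3, edgeR adjusted p = 5.77e-10) and erythroid cells by 7.33 ± 0.27 (edgeR adjusted p = 3.58e-10). The pooled ratio of endothelium to mesoderm was 114 (exact counting interval 38.5 to 557). At 20000 UMIs Tie1 was found in 56.0% of endothelium cells (44.7 to 66.8; 68.7% unthinned) and in 0 of 174 mesoderm cells, which allows a share of cells with a UMI of up to 1.72%, the limit that 3 counts of the total set. Unthinned, 3 of 199 mesoderm cells had a UMI.

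The Tek UMIs of mesoderm came with few UMIs of Kdr and Tie1. For each Kdr UMI, mesoderm held 4.93, 2.89 and 4.60 Tek UMIs in the 3 samples, and endothelium 0.218, 0.304 and 0.303. Mesoderm had 285 Tek UMIs and 3 of Tie1 in all, and endothelium 2.51 Tek UMIs for each of Tie1. With 3 samples a paired exact permutation test cannot go below a two-sided p of 0.25, so the separation of the ratios is given without one. Kdr was found in 18.6% of the 86 mesoderm cells with Tek and 18.2% of the 88 without, at 20000 UMIs. Endothelium markers in mesoderm summed to 98.1 CPM, of which Egfl7 made up 83.2, with 59.6 of Egfl7 in erythroid cells, while Cldn5 was at 1.10, Pecam1 at 5.60, Icam2 at 0.401 and Emcn at 0.

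**Figure D3:**
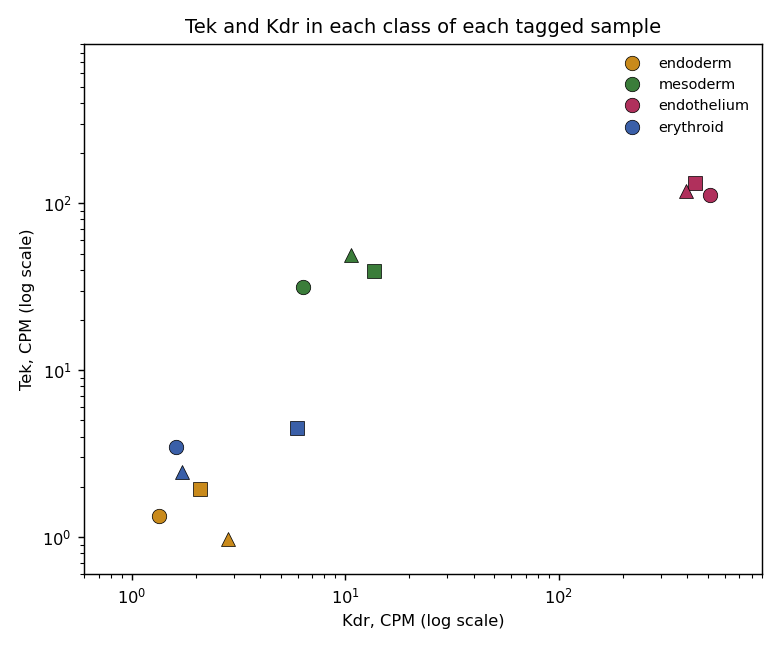
Tek (y axis) against Kdr (x axis) in CPM, both on log scales, with 1 point per class and tagged sample (circle, square and triangle for samples 1, 2 and 3). On both axes the mesoderm points lie between endothelium and the other classes, at 31.4 to 48.8 for Tek and 6.37 to 13.6 for Kdr.

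**Figure D4:**
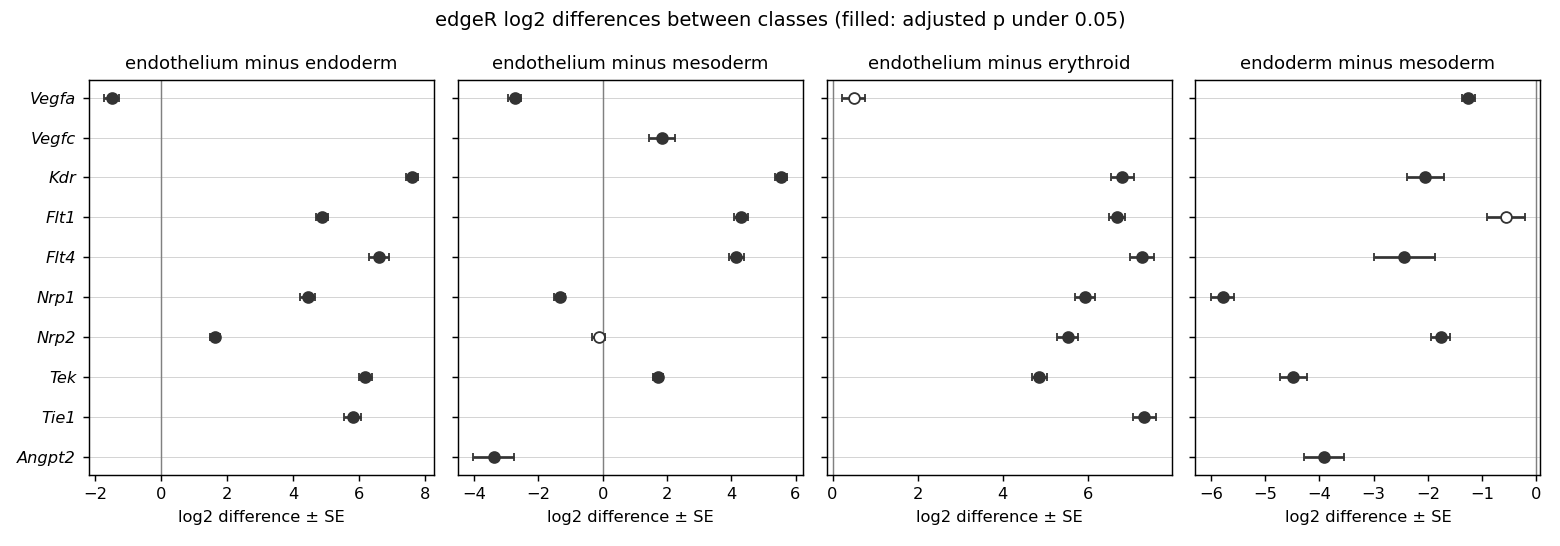
Log2 difference between classes from edgeR (x axis, own scale per panel) with 1 SE as the error bar, for the 10 genes (y axis) in the 4 comparisons. Filled points have an adjusted p under 0.05, open points do not, and genes that were not tested or had 3 or fewer UMIs in a class are not drawn. Nrp2 against mesoderm, Vegfa against erythroid cells and Flt1 in endoderm against mesoderm are open.

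Promoter sequences are shown for Kdr, Flt1, Tek and Tie1, since these 4 genes were high together in endothelium while Tek alone was also high in mesoderm. RefSeq windows of GRCm38.p6, from 250 bases before to 50 after the annotated start, matched 9 of the 10 members. They are written 5′ to 3′ on the gene's strand, with each GGAA and its reverse complement TTCC, the core that ETS transcription factors bind, in capitals. The windows are chr5:75978406-75978705 for Kdr and chr5:147725962-147726261 for Flt1, both on the minus strand, chr4:94739039-94739338 on the plus strand for Tek and chr4:118489800-118490099 on the minus strand for Tie1.
Kdr: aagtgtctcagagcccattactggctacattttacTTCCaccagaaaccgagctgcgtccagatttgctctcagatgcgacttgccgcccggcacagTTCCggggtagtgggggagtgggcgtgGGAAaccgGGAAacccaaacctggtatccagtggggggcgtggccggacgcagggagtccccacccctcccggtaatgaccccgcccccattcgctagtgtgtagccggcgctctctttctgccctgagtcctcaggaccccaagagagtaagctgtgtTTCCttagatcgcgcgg
Flt1: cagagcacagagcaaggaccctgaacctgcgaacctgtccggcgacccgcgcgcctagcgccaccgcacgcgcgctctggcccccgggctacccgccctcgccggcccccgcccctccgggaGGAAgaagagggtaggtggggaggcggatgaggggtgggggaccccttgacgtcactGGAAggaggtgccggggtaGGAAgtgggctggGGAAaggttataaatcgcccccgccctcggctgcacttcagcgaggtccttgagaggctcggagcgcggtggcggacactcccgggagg
Tek: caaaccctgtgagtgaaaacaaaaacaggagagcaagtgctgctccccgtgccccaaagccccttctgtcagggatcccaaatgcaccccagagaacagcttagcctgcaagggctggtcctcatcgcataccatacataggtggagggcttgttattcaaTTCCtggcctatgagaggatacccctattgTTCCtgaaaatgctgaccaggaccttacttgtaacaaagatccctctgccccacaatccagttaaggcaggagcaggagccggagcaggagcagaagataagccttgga
Tie1: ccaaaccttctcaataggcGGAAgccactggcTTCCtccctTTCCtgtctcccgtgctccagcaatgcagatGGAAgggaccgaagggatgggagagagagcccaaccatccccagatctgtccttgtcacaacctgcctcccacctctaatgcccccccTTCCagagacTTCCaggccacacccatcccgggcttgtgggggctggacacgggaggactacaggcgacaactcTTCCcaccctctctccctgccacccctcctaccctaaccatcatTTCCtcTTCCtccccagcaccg
The core was found 5 times in the Kdr window, 4 times in Flt1, 2 times in Tek and 9 times in Tie1, beside a median of 3 over all 32851 windows. At least 1 copy was present in 96.0% of all windows, so its presence sets none of these apart. GATAA, the core for GATA factors, was searched on both strands and was found in the Tek window and in 25.4% of all windows, but not in those of Kdr, Flt1 or Tie1. TATAAA was found in the Flt1 window and in 13.6% of all windows. A match describes letters in the window and is not a measured site.

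Within endothelium the receptors were found together in most cells. At 20000 UMIs, 44 of 84 cells had a UMI of all 4 of Kdr, Flt1, Tek and Tie1, 28 had 3 of them, 11 had 2, 1 had 1 and none had 0. Vegfc and Flt4, a ligand and its receptor, were seen in the same cell in 7 cases, 38.9% of the 18 cells with Vegfc, while 57.6% of the 66 cells without Vegfc had Flt4. In mesoderm, 98.8% of the 86 cells with Tek also had Nrp1 against 73.9% of the 88 without, and 74.4% had Vegfa against 54.5%. Detection of any gene depends on how a cell's UMIs are divided, and these cells come from only 3 samples, so the shares are given without a test.

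**Figure D5:**
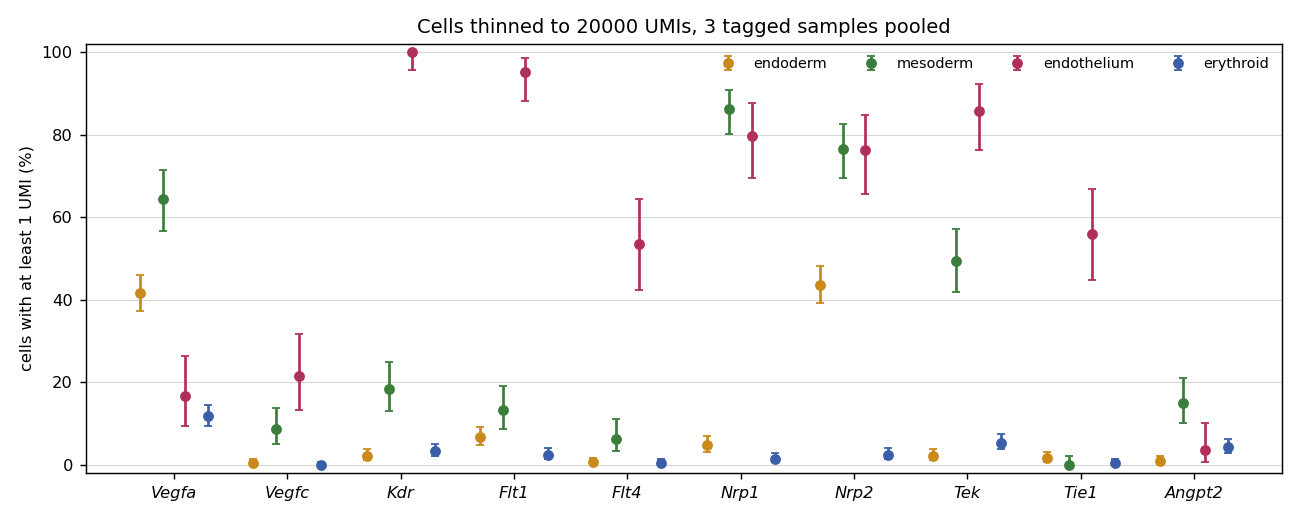
Percent of cells with at least 1 UMI (y axis) of each gene (x axis) at 20000 UMIs per cell, without the cells of lower depth, over the 3 tagged samples, with exact binomial 95% intervals as error bars and colours for the 4 classes. Kdr is found in all 84 endothelium cells of that depth, Tek in 49.4% of the 174 mesoderm cells and Tie1 in none of these, and Vegfa and Nrp2 are spread over endoderm at 41.7% and 43.6%.

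Genes that work beside these receptors mostly followed endothelium. Of 16 receptor partners and phosphatases, 10 of 13 tested were higher in endothelium than in endoderm, 7 of 11 than in mesoderm and 11 of 13 than in erythroid cells, and none was lower. The medians were 1.18, 0.54 and 2.08, beside -0.05, -0.01 and -0.03 for all genes. In endoderm against mesoderm 2 of 11 were higher and 6 lower, with a median of -0.57 beside 0.02. Among all genes, 28.6%, 19.5% and 34.1% were higher in endothelium in the first 3 comparisons, and 33.2% higher and 30.6% lower in the last. Ptprb, the phosphatase that acts on Tie2, had 47.4 CPM in endothelium on average and 1.08 in mesoderm, a log2 difference of 5.43 ± 0.36 (SE, n = 3, edgeR adjusted p = 1.61e-07). It thus differed between the 2 classes that both carried Tek. Clec14a, an endothelial surface lectin, had 62.4 and 0.835, with a log2 difference of 6.19 ± 0.71 (edgeR adjusted p = 1.98e-05). Itgb1, the integrin beta chain, was at 446 in endothelium, 429 in mesoderm and 180 in endoderm, and was higher in endothelium than in endoderm by 1.18 ± 0.09 (edgeR adjusted p = 9.28e-08). Its partner chain Itga5 was higher in endothelium than in erythroid cells by 4.67 ± 0.17 (edgeR adjusted p = 3.58e-10), and Efnb2, an ephrin, was lower in endoderm than in mesoderm by -3.14 ± 0.30 (edgeR adjusted p = 3.50e-06).

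Of 10 genes known to respond to VEGF or to mark vessel tip cells, 7 were tested in each comparison with endothelium. Against erythroid cells 7 were higher, beside 34.1% of all genes, and against mesoderm 4 were higher and 1 lower, beside 19.5% and 15.9%. Against endoderm 3 were higher and 3 lower, beside 28.6% and 32.0%. The medians were 4.79, 4.16 and 0.36, beside -0.03, -0.01 and -0.05. In endoderm against mesoderm, 3 of 4 were higher and none lower, beside 33.2% and 30.6%, with a median of 1.55 beside 0.02. Dll4, Esm1, Apln and Kcne3 passed the low-count filter against mesoderm only through endothelium, which fixed their direction. The same held for Dll4, Esm1 and Kcne3 against endoderm, and for all tested but Rcan1 against erythroid cells. In endoderm against mesoderm, Apln passed only through endoderm. Dll4, the Notch ligand of tip cells, had 90 UMIs in endothelium and none in mesoderm, at least 49.8-fold higher against 3 UMIs set for the whole mesoderm class. Kcne3, a potassium channel subunit, was higher in endothelium than in endoderm by 7.21 ± 0.35 (log2, SE, n = 3, edgeR adjusted p = 1.59e-09). Apln, the ligand of the apelin receptor, was high outside endothelium as well, with 45.1 CPM in endothelium, 32.7 ± 15.0 in endoderm (SD, n = 3) and 1.27 in mesoderm. It was higher in endoderm than in mesoderm by 4.90 ± 0.52 (edgeR adjusted p = 7.11e-06). Rcan1, a calcineurin regulator, was higher in endoderm than in mesoderm by 2.12 ± 0.15 (edgeR adjusted p = 3.12e-07).

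A list of known endothelial transcription factors was mostly higher in endothelium as well. The list was chosen for that cell type, and Erg, Fli1, Sox17 and Sox18 are also among the 10 endothelium markers. Its counts therefore describe the class and are not an independent result. All 15 tested of 16 were higher in endothelium than in endoderm, 13 of 14 were higher than in mesoderm with none lower, and 13 of 15 were higher than in erythroid cells with 1 lower. That gene, named after its values were seen, was Tal1, a factor of both blood and vessel formation, at 106 CPM in erythroid cells and 48.7 in endothelium. The medians were 4.91, 3.53 and 4.46, beside -0.05, -0.01 and -0.03 for all genes, of which 28.6%, 19.5% and 34.1% were higher. Foxc2 had no UMI in erythroid cells and could be tested against them only through endothelium. Fli1, an ETS factor, had 166 CPM in endothelium, 3.87 in mesoderm, 1.57 in erythroid cells and 1.32 in endoderm, a log2 difference of 5.51 ± 0.23 from mesoderm (SE, n = 3, edgeR adjusted p = 4.54e-09). Elk3, another ETS factor, differed by 5.53 ± 0.26 (edgeR adjusted p = 9.13e-09). In endoderm against mesoderm 3 of 11 were higher and 4 lower, beside 33.2% and 30.6% of all genes, with a median of -0.25 beside 0.02. There Sox17, which also marks endoderm, was higher in endoderm by 3.12 ± 0.34 (edgeR adjusted p = 9.44e-06), and Ets1 was lower by -3.72 ± 0.19 (edgeR adjusted p = 2.29e-08).

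Oxygen sensing runs through HIF transcription factors, which prolyl hydroxylases mark for decay and which switch on genes of glycolysis and survival when oxygen is low. Of 8 oxygen-sensing genes, all tested, 3 were higher and none lower in endothelium than in endoderm, beside 28.6% and 32.0% of all genes, 1 higher and 1 lower than in mesoderm, beside 19.5% and 15.9%, and 4 higher and none lower than in erythroid cells, beside 34.1% and 31.9%. Endoderm had 1 higher and 4 lower than mesoderm, beside 33.2% and 30.6%. The medians in these 4 comparisons were 0.26, -0.04, 0.56 and -0.32, beside -0.05, -0.01, -0.03 and 0.02. Epas1, the HIF2 alpha subunit, was lower in endoderm than in mesoderm by -2.76 ± 0.21 (log2, SE, n = 3, edgeR adjusted p = 5.61e-07) and lower in endothelium than in mesoderm by -0.91 ± 0.23 (edgeR adjusted p = 0.00799). Egln3, a HIF prolyl hydroxylase, was higher in endothelium than in mesoderm by 1.93 ± 0.25 (edgeR adjusted p = 5.62e-05). Egln1, another, had 88.1 CPM in mesoderm, 70.9 in endothelium, 34.3 in endoderm and 19.7 in erythroid cells on average.

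Of 10 hypoxia targets, 2 of 7 were higher and 3 lower in endothelium against endoderm, 2 of 8 higher and 3 lower against mesoderm, and none of 7 higher and 5 lower against erythroid cells. Endoderm against mesoderm gave 4 of 9 higher and 4 lower. The same shares of all genes as above stand beside these, 28.6% and 32.0%, 19.5% and 15.9%, 34.1% and 31.9%, and 33.2% and 30.6%. The medians were -0.27, 0.17, -0.45 and -0.07, beside -0.05, -0.01, -0.03 and 0.02. Slc2a1, the glucose transporter GLUT1, had 918 ± 96.2 CPM in mesoderm, 238 ± 43.0 in endoderm, 120 ± 8.54 in endothelium and 80.7 ± 11.3 in erythroid cells (SD, n = 3). It was lower in endothelium than in mesoderm by -2.80 ± 0.10 (edgeR adjusted p = 1.29e-09). Ndrg1 was lower in endoderm than in mesoderm by -4.51 ± 0.23 (edgeR adjusted p = 2.37e-08) and lower in endothelium than in mesoderm by -3.35 ± 0.49 (edgeR adjusted p = 0.000140). Bnip3, a mitophagy gene, had 107 CPM in endoderm and 30.4 in mesoderm, and was lower in endothelium than in endoderm by -2.88 ± 0.17 (edgeR adjusted p = 1.38e-08). Ldha, a lactate dehydrogenase subunit, was lower in endothelium than in erythroid cells by -0.92 ± 0.06 (edgeR adjusted p = 2.18e-08).

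Kdr and Vegfa were each compared with 6687 other genes over the 12 class sums of the 3 samples, by Pearson correlation of log2 levels with a pseudocount of 1. The 3 most like Kdr were Nes with r = 0.995, Fli1 with 0.995 and Igf1 with 0.993, and the 3 most like Vegfa were Tiparp with 0.986, Ptpn13 with 0.986 and Samhd1 with 0.985. The 12 points share samples and totals and fall into 4 classes, so r describes the order of the classes and no p is given.

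Cells outside the 4 classes carried some of the receptors. In 27 cells with at least 3 blood progenitor or megakaryocyte markers, Kdr had 99 UMIs, 65.4 CPM over all 3 samples, and Tie1 21 UMIs, 13.9 CPM. By sample, Kdr there was 129, 65.2 and 30.9. In 52 cells with at least 3 trophoblast markers, among which Tpbpa, Prl3d1 and Prl2c2 were at 0, Flt1 had 38 UMIs, 13.2 CPM, and Kdr 1. By sample, Flt1 there was 13.0, 5.70 and 43.3, the last from 6 cells. Other markers of the list were also found in the gated classes. On average, Phlda2 was at 794 and Rhox6 at 45.4 CPM in endoderm, and Plac1 was at 54.2 in endothelium. Having 3 of the markers thus does not name a cell type. The remaining 109 cells, with neither set of markers, had 72 UMIs of Flt1, 17.9 CPM, and 45 of Tek, 11.2 CPM, so that Flt1 was not higher in the cells with trophoblast markers than in these. Within mesoderm, the 59 cells with at least 3 of 6 contractile markers had 380 CPM of Nrp1 and 51.6 of Tek over all samples, against 212 and 34.6 in the other 140 cells. Vegfa did not follow this division, at 74.8 and 74.2. These groups are small and are described without a test.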

How the data were processed

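Per the labels' protocols, yolk sac cells were tagged with CellPlex oligonucleotides, pooled and captured on 10x chips. The values are deposited as unnormalized UMI counts of each gene in each cell, which the authors made with Cell Ranger 6.1.2, per the file headers, with GRCm38 and mm10 named in the submitters' processing notes. Tag rows were left out. The method that assigned cells to tags was not given in the sources used here.

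Classes were set by shares of a cell's UMIs: Ttr, Apob and Apom at least 0.3% (endoderm), 7 globins at least 3% (erythroid), Cdh5, Ctla2a and Plvap at least 0.04% (endothelium), and Hand1, Vcan and Foxf1 at least 0.03% (mesoderm). These 16 genes count in totals but were not tested. Cells within 2-fold of a threshold were 21 below and 61 above (endoderm), 87 and 210 (erythroid), 15 and 38 (endothelium) and 37 and 60 (mesoderm). Doublets were removed only in an alternative (89 Scrublet calls). UMI counts were summed per sample and class and tested with edgeR 4.0.16 (TMM, filterByExpr, quasi-likelihood, 2 classes per fit, Benjamini-Hochberg threshold 0.05). The SE is the absolute log2 difference divided by the square root of F. Alternatives used DESeq2 1.42.0 and other scalings, filters, thresholds and samples. On simulated data, 73% to 82.5% of 2-fold and 99% to 100% of 4-fold changes were recovered over the 4 comparisons, with 7 to 11 false calls. The simulation raised a small set of well-counted genes and gave all genes the same fixed spread. It therefore does not describe members with few UMIs or the many calls of the real comparisons.

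Class sums of the same number come from the same yolk sac and are therefore paired. Their deviations from the class means correlated at 0.107, 0.037 and 0.056 (endothelium and endoderm), 0.149, 0.087 and 0.010 (endothelium and mesoderm), 0.117, 0.089 and 0.041 (endothelium and erythroid) and 0.068, 0.096 and 0.015 (endoderm and mesoderm). All members are named, and of each pathway list the 2 genes with the smallest p. The members and lists were chosen with earlier results of these data known.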

Additional observations from a re-analysis of the deposited data

How the results depend on the processing

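Over 15 alternatives to the tests and 1 more chosen after seeing the data, 559 of the 565 member values that could be tested kept their direction and their side of the threshold. The exceptions were Nrp2 in endothelium against mesoderm, which was -0.52 without sample 1 and past the threshold, 0.17 without sample 3 and 0.0056 when mesoderm cells with endothelium UMIs were removed, Vegfc in that comparison, which was 1.20 without sample 2, Vegfa in endothelium against erythroid cells, which was 0.81 with scaling by library size alone, and Flt1 in endoderm against mesoderm, which was -1.08 with doubled thresholds. The cause was not tested. Alternatives in which a member could not be tested are not among the 565. These concerned Angpt2 and Vegfc in endothelium against mesoderm and Vegfc in endothelium against erythroid cells. In endoderm against mesoderm they concerned Flt4, Vegfc and Kdr. An alternative added after seeing the data removed mesoderm cells with 2 or more UMIs over the endothelium genes and Kdr. It left 36 of 199 cells, 11 to 14 per sample, so that Kdr there was set by the choice. Egfl7 is among those genes, at 83.2 CPM in mesoderm and 59.6 in erythroid cells, so the cut is not specific to endothelial RNA. Vegfc moved from 4.56 to 1.08 CPM, the same low value as Kdr there, Vegfa from 74.4 to 53.4 and Tek from 39.8 to 41.9. What set these moves was not tested. The removal lowered the genes called from 3216 to 1577 in endothelium against mesoderm and from 7016 to 3977 in endoderm against mesoderm, with fewer cells in the sums. Leaving out 1 sample gave 5410 to 6287 genes called in endothelium against endoderm, 2225 to 3338 in endothelium against mesoderm, 5168 to 6284 in endothelium against erythroid cells and 5754 to 7016 in endoderm against mesoderm. With a replicate block for the yolk sac, 6466, 3390, 6061 and 6926 genes were called beside 6464, 3216, 6100 and 7016, and no member's call changed. Scaling by library size alone moved the median of all genes to 0.08, -0.13, 0.28 and -0.22 in these 4 comparisons. Against erythroid cells, differences of endothelium that moved by over 1.5 times were Kdr at 7.56 and Flt1 at 7.47 with halved thresholds, Tek at 5.49, Nrp1 at 5.16 and Tie1 at 6.61 with doubled ones, Nrp1 at 6.58 without doublet calls, and Flt1 at 7.88, Nrp2 at 6.53 and Tie1 at 8.83 with thinned sums, all called. Depth limits the low members most: Tie1 in mesoderm, Vegfc in endoderm and erythroid cells and Angpt2 in endothelium rest on 4 or fewer UMIs, and 23 of 40 shares of cells with a UMI differed beyond their interval when cells were not thinned.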
